A study of Mus musculus with 5 samples.

Results

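The claudin family of tight junction proteins was examined in bulk RNA sequencing of mouse colon spheroids, which are cultures of colon epithelium. The 10 members were chosen by name: Cldn1, Cldn2, Cldn3, Cldn4, Cldn6, Cldn7, Cldn8, Cldn12, Cldn15 and Cldn23, out of 32793 gene rows in the deposited tables. The mutant group (NDD, titled RA in the sample names) carries Notch1DD and Notch2DD, alleles labelled as dimerization-deficient, and has 2 libraries. The wild-type group (WT) has 3 libraries. Strain background was mixed in both groups, with C57Bl6 the larger share and FVB the smaller. The labels name no age, sex, passage or number of animals, and do not say whether the libraries of a group came from separate animals or cultures. The p-values therefore measure only the spread between these libraries, which may be technical. The study asked, by its title, what NOTCH dimerization adds to keeping the intestine in balance.

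Claudins are membrane proteins whose extracellular loops join neighbouring epithelial cells and form the strands of the tight junction. Sealing members close the space between cells to ions. Pore-forming members line narrow channels in the same strands and let selected ions and water pass. The mix of members in a cell sets how leaky the epithelium is, and in the intestine this mix differs between crypt and surface and along the length of the gut. Here Cldn1, Cldn3, Cldn4 and Cldn8 were counted as sealing, and Cldn2 and Cldn15 as pore-forming. Cldn6, Cldn7, Cldn12 and Cldn23 were kept apart because their roles are less settled.

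Total counts per library lay between 19192389 and 23064000, with both NDD libraries between the lowest and the highest WT library. On the first principal component (56.2% of the variance), NDD replicate 1 (-6.24) lay near WT replicates 1 and 2 (12.3 and 10.1). WT replicate 3 (42.0) and NDD replicate 2 (-58.1) lay at opposite ends. NDD replicate 1 had a higher Spearman correlation with each WT library (0.973 to 0.985) than with NDD replicate 2 (0.966). NDD replicate 2 stood furthest from the others on that component. It also had the lowest summed level of 18 proliferation markers, at 1368 CPM (counts per 1000000 counts, with TMM-scaled library sizes) against 3082 to 3432 CPM in the other 4 libraries. The epithelial label was checked against markers. All 10 epithelial genes, among them Epcam, Cdh1 and Cdx2, were present in every library. Their summed level was 13770 to 14250 CPM in NDD and 12729 to 13882 CPM in WT. Some defining genes of other cells had at most 2 counts in any library. These were Ptprc and Cd3e (immune), Pdgfra, Lum and Thy1 (fibroblast) and Cdh5 and Kdr (endothelium). Other markers of those cells had more, with up to 87 (immune), 552 (fibroblast) and 157 (endothelium) counts in a library. The summed level of 10 fibroblast markers was 9.92 to 27.1 CPM in NDD and 4.80 to 9.32 CPM in WT. Most of that sum was Pdgfrb, with 188 and 552 counts in NDD and 80 to 122 in WT. The 10 immune markers summed to 2.40 to 4.26 CPM in NDD and 4.81 to 8.62 CPM in WT, and the 8 endothelial markers to 3.15 to 8.43 CPM in NDD and 4.66 to 5.45 CPM in WT. The part of these traces in the claudin values was not tested.

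Of the 10 claudins, 8 were expressed and entered the test, and 2 were practically silent. Cldn1 (chr16:26356645-26371839, - strand, GRCm38.p6), a barrier claudin best known from skin, had 1 and 0 counts in NDD and 1, 2 and 1 counts in WT. Cldn6 (chr17:23679348-23682446, + strand), a claudin of embryonic epithelia, had 1 count in WT replicate 2 and 0 in the other 4 libraries. Zero counts leave room for up to 3 at this depth, or 0.130 to 0.156 CPM, counting error only. Both genes were at or under that limit in either genotype, so no fold is given, and a difference was not detectable at this depth.

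Levels of different claudins were compared in TPM, the deposited abundance scaled for transcript length. Cldn3 and Cldn7 were the most abundant, at 746 ± 1.29 and 742 ± 123 TPM in NDD (SD, n = 2) and 746 ± 61.9 and 731 ± 52.7 TPM in WT (SD, n = 3). Cldn3 is a sealing claudin of simple epithelia, and Cldn7 lies along the lateral membrane and binds the adhesion protein EpCAM. These neighbours in rank did not differ beyond their spread: Cldn7 led in NDD replicate 1 and WT replicate 2, and Cldn3 led in the other 3 libraries. Cldn4, a sealing claudin, came next after this pair in every library, at 248 to 452 TPM. Together the 3 genes made up 85.0 to 91.7% of the summed claudin TPM.

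Cldn15 came after these 3 in all 5 libraries, at 55.9 to 136 TPM. Cldn15 forms sodium-permeable pores in the intestine. Below it stood Cldn12 (44.6 to 62.7 TPM), Cldn2 (30.4 to 46.3 TPM), Cldn8 (15.0 to 46.9 TPM) and Cldn23 (17.1 to 37.5 TPM). Neighbours in this order overlapped and changed places from library to library, while Cldn12 lay above Cldn23 in all 5. The 4 leading genes were thus the same in NDD and WT.

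**Figure D1:**
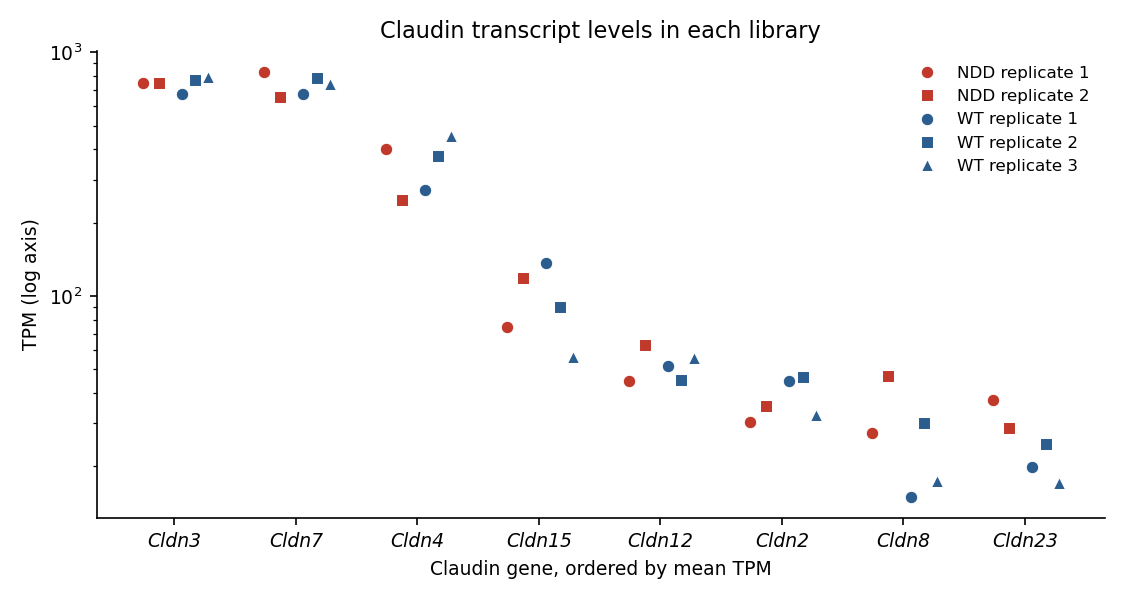
TPM of the 8 expressed claudins in each library on a log axis, with genes ordered by mean TPM; red points are NDD, blue points are WT, and the symbol gives the replicate. Cldn3, Cldn7 and Cldn4 lie at 248 TPM or more in all 5 libraries, the other 5 genes lie at 136 TPM or less, and only for Cldn23 do the NDD points all lie above the WT points.

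None of the 8 tested claudins was called as changed in NDD (edgeR quasi-likelihood test, adjusted p under 0.05 over all 13501 genes tested). The share called among all genes was 0.0889%, that is 12 genes, with 0.0667% called higher and 0.0222% called lower in NDD. At an unadjusted p under 0.05 there was 1 of 8 claudins, Cldn23, against 11.2% of all genes. Cldn23 was on the higher side, where 6.49% of all genes were, against 4.68% on the lower side. The CPM of the groups did not overlap for the same 1 of 8 claudins, against 32.0% of all genes, so neither share sets the family apart. DESeq2, which called 2.54% of the genes it tested, and limma on log2(TPM + 1) also called 0 of the members. At an unadjusted p under 0.05 there were 2 members by DESeq2, where 1786 of all genes were. By limma there was 1 member, where 1293 of all genes were. In these bulk samples, a change in the number of cells that express a gene and a change in its RNA per cell cannot be told apart.

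The sealing claudins were led by Cldn3, which lies at chr5:134986214-134987476 (+ strand, 1 exon, GRCm38.p6). It was at 479.8 and 519 CPM in NDD and at 441, 515 and 512 CPM in WT, with WT replicate 1 the lowest and the groups overlapping. Its log2 fold change was 0.03 ± 0.13 (SE), with an adjusted p of 0.920 by edgeR. The 95% interval of the fold, NDD over WT, ran from 0.819 to 1.27. The gene Wbscr25 overlaps Cldn3 on the opposite strand, and the counting's strand setting is not given in the sources used here. Wbscr25 itself was too low to enter the test, while Cldn3 had 8521 counts or more in every library.

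Cldn4 lies 39280 bases from Cldn3 on the opposite strand, at chr5:134945123-134946934. It was at 390.2 and 262 CPM in NDD and at 271, 382 and 442 CPM in WT. NDD replicate 2 and WT replicate 1 were low, and the other 3 libraries were high, irrespective of genotype. Its log2 fold change was -0.16 ± 0.26 (SE), with an adjusted p of 0.773 by edgeR. The interval of the fold ran from 0.573 to 1.39. The sign turned without NDD replicate 2, to 0.11, and the value was -0.48 without NDD replicate 1.

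Cldn8, at chr16:88560826-88563183 (- strand, 1 exon), is a sealing claudin of the distal gut and kidney that is known to pair with Cldn4. It was at 36.1 and 66.2 CPM in NDD and at 20.0, 41.2 and 22.9 CPM in WT. NDD replicate 2 was highest, and WT replicate 2 lay between the NDD libraries, so the groups overlapped. The log2 fold change was 0.86 ± 0.38 (SE), with an adjusted p of 0.46 by edgeR. It was the largest log2 fold change of the 8 with all libraries. The interval of the fold ran from 0.951 to 3.48, so neither no difference nor a more than 3-fold higher level is outside it. Cldn8 depended on single libraries. Leaving out NDD replicate 2 gave a log2 fold change of 0.37, NDD replicate 1 gave 1.24 and WT replicate 2 gave 1.26. Its unadjusted p was 0.065 by edgeR, 0.0302 by DESeq2 and 0.00675 by edgeR with the replicate block. By edgeR that p was 0.0115 without WT replicate 2, and 0.170 and 0.152 without WT replicates 1 and 3. No alternative called Cldn8.

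Both pore-forming claudins overlapped between the groups. Cldn2, at chrX:139800808-139811386 (+ strand), forms a channel for sodium and water and is typical of crypt cells. It was at 50.3 and 58.7 CPM in NDD and at 68.9, 75.9 and 51.8 CPM in WT. WT replicate 3 lay between the NDD libraries. The log2 fold change was -0.27 ± 0.20 (SE), with an adjusted p of 0.553 by edgeR. The fold interval was 0.599 to 1.16. Leaving out WT replicate 2 gave -0.13, NDD replicate 1 gave -0.16 and WT replicate 3 gave -0.41. Crypt markers are given beside it. The 15 crypt stem and progenitor markers summed to 1466 to 1861 CPM in NDD and 1575 to 1938 CPM in WT. Of the 13 tested, 9 had a negative and 4 a positive log2 fold change, with a median of -0.30, or -0.14 without NDD replicate 2. edgeR called 0 of them and DESeq2 called 3, against 2.54% of all genes by DESeq2. By edgeR 5 had an unadjusted p under 0.05, all lower in NDD, against 4.68% of all genes on that side. Lgr5, a receptor of crypt stem cells, was at 2.32 and 1.40 CPM in NDD and at 9.37, 7.34 and 8.66 CPM in WT, the lowest log2 fold change of the 13, at -2.18, with an adjusted p of 0.119 by edgeR. The part of the crypt markers in the values of Cldn2 was not tested.

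Cldn15, at chr5:136967869-136975845 (+ strand, 4 to 6 exons per GENCODE M21 transcript), was at 74.8 and 128 CPM in NDD and at 139, 94.3 and 56.1 CPM in WT. The highest and the lowest of the 5 values were both WT libraries. Its log2 fold change was 0.07 ± 0.40 (SE), with an adjusted p of 0.941 by edgeR. The interval of the fold was wide, from 0.532 to 2.07. The sign turned without NDD replicate 2 (-0.35) and without WT replicate 3 (-0.20), while the value was 0.43 without WT replicate 1.

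**Figure D2:**
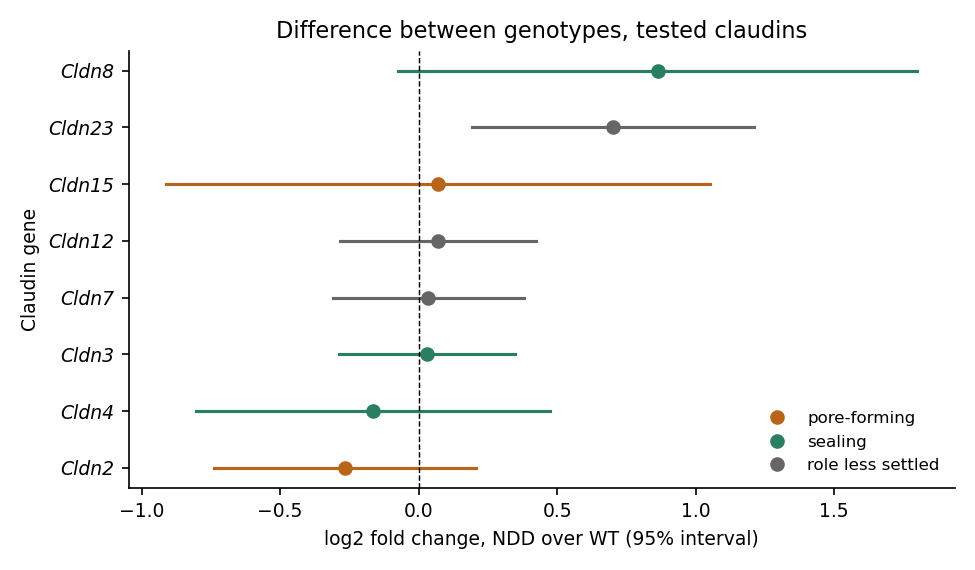
Log2 fold change, NDD over WT, of the 8 tested claudins (points) with 95% intervals from the edgeR fit (lines), coloured by class. The interval of Cldn23, from 0.19 to 1.21, is the only 1 that leaves out 0 before adjustment; those of Cldn8 and Cldn15 are the widest.

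Among the claudins of less settled role, Cldn23 showed the 1 separation of the groups. Cldn23, at chr8:35824709-35826559 (- strand), is a distant family member known from differentiated surface epithelium of the intestine. It was at 37.6 and 31.1 CPM in NDD and at 20.3, 25.9 and 17.2 CPM in WT. Both NDD libraries lay above all 3 WT libraries. The log2 fold change was 0.70 (SE 0.21), a fold of 1.63 with an interval from 1.14 to 2.31. It did not pass the test over all genes (edgeR unadjusted p 0.0149, adjusted p 0.398), nor under any alternative (adjusted p from 0.145 to 0.882). With each library left out in turn the log2 fold change stayed positive, from 0.56 to 0.89. The unadjusted p rose to 0.0568 without NDD replicate 1 and to 0.0523 without WT replicate 1.

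Markers of mature colonocytes lay on the same side as Cldn23. Of the 20 marker genes, 14 were higher and 1 lower in NDD with no overlap of the groups, where 15.8% and 16.2% of all genes were on those sides. The list's median log2 fold change was 1.34, against -0.0047 over all genes tested. None of the 20 had an edgeR adjusted p under 0.05, and 9 had an unadjusted p under 0.05, all higher in NDD, against 6.49% of all genes on that side. DESeq2 called 5, against 2.54% of all genes. Without NDD replicate 2 the median was 0.93. The summed level of the 20 markers was 7764 to 8137 CPM in NDD and 4871 to 6466 CPM in WT. WT replicate 3 held the lowest sum, and the median without that library was not computed. Krt20, a keratin of surface colonocytes, was at 60.0 and 131 CPM in NDD and at 35.0, 35.3 and 4.93 CPM in WT. Of 10 goblet markers, 9 had a positive and 1 a negative log2 fold change. Their median was 0.31, or 0.07 without NDD replicate 2, and 2 had an unadjusted p under 0.05 by edgeR, both higher in NDD. All 18 proliferation markers had a negative log2 fold change. Their median was -0.58, or -0.07 without NDD replicate 2, and 1 had such a p, against 4.68% of all genes on the lower side. edgeR called 0 in either list. The part of any of these markers in the values of Cldn23 and Cldn8 was not tested.

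Cldn7, at chr11:69964779-69967886 (+ strand), was at 551 and 468 CPM in NDD and at 456, 543 and 492 CPM in WT. NDD replicate 2 and WT replicate 1 were low, and the groups overlapped. The log2 fold change was 0.04 ± 0.14 (SE), with an adjusted p of 0.912 by edgeR, and the fold interval was 0.807 to 1.30. Cldn12, at chr5:5505015-5514976 (- strand), is linked to calcium passage between cells. It was at 67.8 and 84.1 CPM in NDD and at 69.9, 69.2 and 77.8 CPM in WT, which is a log2 change of 0.07 ± 0.15 (SE), with an adjusted p of 0.827 by edgeR. Its fold interval was 0.822 to 1.34. The 2 NDD values bracketed all 3 WT values. Left-out libraries turned the sign of both genes around 0, over -0.09 to 0.16 for Cldn7 and -0.08 to 0.22 for Cldn12, and that of Cldn3 over -0.04 to 0.08.

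**Figure D3:**
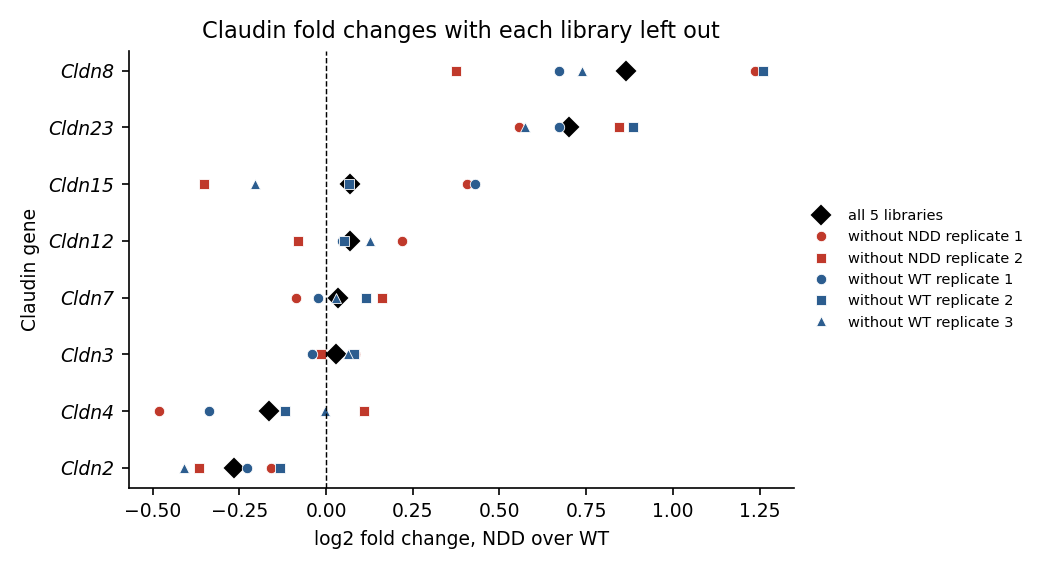
Log2 fold change, NDD over WT, of the tested claudins with all 5 libraries (black diamonds) and with each library left out (coloured symbols, red for a left-out NDD and blue for a left-out WT library). Cldn23 stays between 0.56 and 0.89, Cldn2 stays below 0 and Cldn8 above 0, while Cldn3, Cldn4, Cldn7, Cldn12 and Cldn15 fall on both sides of 0.

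The balance of pore-forming and sealing claudins was set out next as summed TPM per library. Cldn2 and Cldn15 together stood at 105 and 154 TPM in NDD and at 181, 137 and 88.5 TPM in WT. The sealing members summed to 1172 and 1042 TPM in NDD and to 964, 1172 and 1263 TPM in WT. There were thus 8.97 and 14.7 TPM of pore-forming per 100 TPM of sealing claudins in NDD, and 18.8, 11.7 and 7.01 in WT. Both NDD values fell inside the WT range. The log2 ratio was -3.12 ± 0.51 in NDD (SD, n = 2) and -3.12 ± 0.71 in WT (SD, n = 3). The difference of -0.0042 was far smaller than either SD, and it ranged from -0.36 to 0.35 when 1 library was left out. No p is given for these sums.

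**Figure D4:**
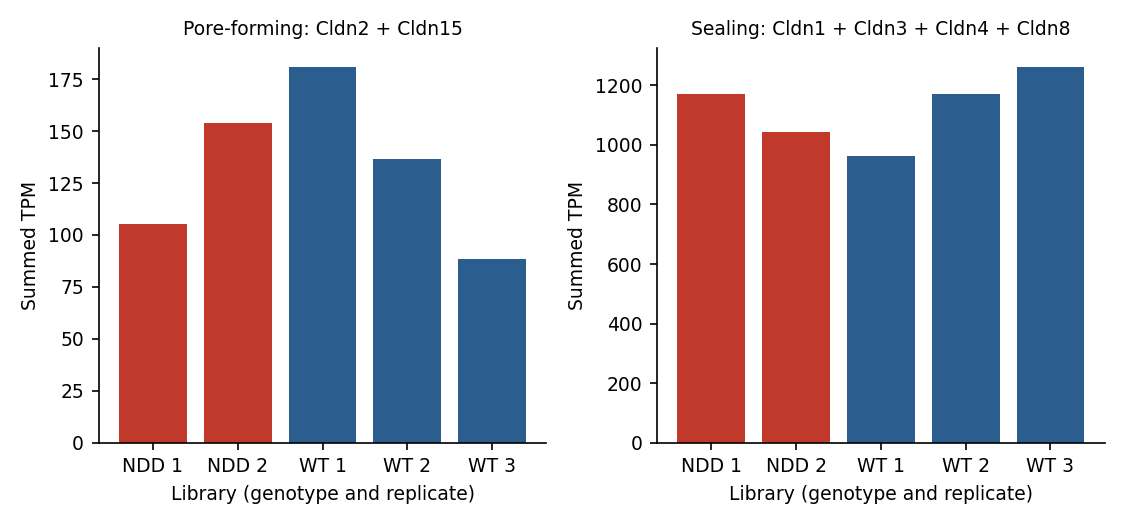
Summed TPM of the pore-forming claudins (left) and of the sealing claudins (right) in each library, with NDD in red and WT in blue and separate axes that start at 0. WT replicate 1 has the highest pore-forming sum (181 TPM) and the lowest sealing sum (964 TPM), WT replicate 3 has the reverse (88.5 and 1263 TPM), and the NDD libraries lie between them.

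The family as a whole kept a similar level. The 10 members summed to 2188 and 1943 TPM in NDD and to 1892, 2159 and 2162 TPM in WT. The log2 difference of the group means was -0.0034, and it ran from -0.09 to 0.08 with 1 library left out. Cldn3 held 34.1 to 38.5% of the sum and Cldn7 33.7 to 37.9%. The share of Cldn4 moved from 12.8 to 20.9%, and that of Cldn15 from 2.59 to 7.21%.

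Cldn15 and Cldn4 varied between libraries within each genotype, in nearly opposite order over the libraries. WT replicate 1 and NDD replicate 2 held the highest Cldn15 and the lowest Cldn4, and WT replicate 3 held the lowest Cldn15 and the highest Cldn4. WT replicate 1 lay above NDD replicate 2 for both genes. In TPM there were 18.7 and 47.6 of Cldn15 per 100 of Cldn4 in NDD, and 49.9, 24.1 and 12.4 in WT. That is a 4.03-fold range within WT and a 2.55-fold range within NDD. The pooled SD within genotype was 0.62 on the log2 CPM scale for Cldn15 and 0.38 for Cldn4, against a median of 0.22 over all genes tested, and 7.18% and 23.3% of genes had a larger one. Cldn3 was among the steadier genes, with an SD of 0.11 and 82.3% of genes above it. These shares are over genes of all levels and were not matched for level. With 5 libraries no correlation is given, and the pair was singled out after its values were seen.

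**Figure D5:**
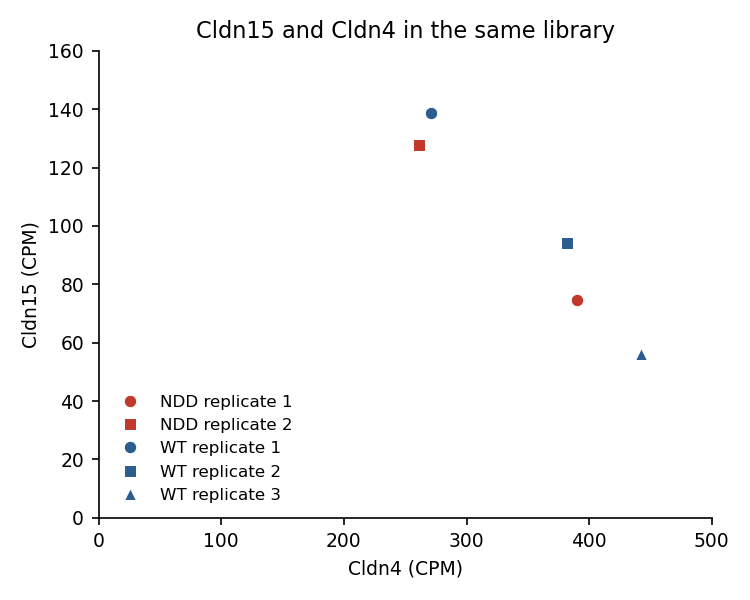
CPM of Cldn15 (vertical axis) against Cldn4 (horizontal axis), 1 point per library, NDD in red and WT in blue. WT replicate 1 and NDD replicate 2 lie at the upper left, near 139 and 128 CPM of Cldn15, and WT replicate 3 lies at the lower right with 56.1 CPM of Cldn15 and 442 CPM of Cldn4.

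Promoter sequences of this pair and of Cldn2 are shown because Cldn15 and Cldn4 varied in nearly opposite order and because Notch acts on genes through its DNA-binding partner RBPJ. RefSeq (GRCm38.p6) gave windows from 250 bases before to 50 after the start for 8 of the 10 members, 11 windows in all. Cldn8 and Cldn23 were not matched. The RBPJ core TGGGAA, searched on both strands as TGGGAA or TTCCCA, was in 3 of the 11 windows (Cldn2, Cldn6 and 1 of the 2 windows of Cldn7), a share of 27.3% against 25.6% of all 32851 windows. In Cldn2 it lay in the bases after the start. A core of the intestinal CDX factors, TTTAT or ATAAA, was in 2 of the 11 windows (Cldn2 and Cldn15), 18.2% against 40.0% of all windows. That core was chosen after the values were seen. ATAAA is also part of the TATA box TATAAA: of the 2 matches in Cldn2, the ATAAA 34 bases before the start lies in TATAAA, and the TTTAT 244 bases before it does not. The 250 bases before the start follow, 5′ to 3′ on the gene's strand, for Cldn2 (chrX:139800558-139800807, + strand), Cldn15 (chr5:136967619-136967868, + strand) and Cldn4 (chr5:134946935-134947184, - strand). Capitals mark the CDX core letters, and Cldn4 held neither motif. A match describes letters only and is not evidence of binding.
Cldn2: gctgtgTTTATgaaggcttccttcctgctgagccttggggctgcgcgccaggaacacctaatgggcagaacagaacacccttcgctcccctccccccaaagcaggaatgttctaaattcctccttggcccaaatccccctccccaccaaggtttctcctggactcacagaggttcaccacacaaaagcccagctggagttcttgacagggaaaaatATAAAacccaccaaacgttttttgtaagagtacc
Cldn15: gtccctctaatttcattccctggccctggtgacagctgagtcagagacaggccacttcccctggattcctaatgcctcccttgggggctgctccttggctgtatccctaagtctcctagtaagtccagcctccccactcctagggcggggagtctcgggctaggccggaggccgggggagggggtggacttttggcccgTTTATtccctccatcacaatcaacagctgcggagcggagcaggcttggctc
Cldn4: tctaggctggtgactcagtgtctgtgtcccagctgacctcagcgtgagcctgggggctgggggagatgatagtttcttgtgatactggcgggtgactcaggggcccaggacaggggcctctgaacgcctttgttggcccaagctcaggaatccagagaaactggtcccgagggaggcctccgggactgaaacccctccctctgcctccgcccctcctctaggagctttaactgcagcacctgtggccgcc

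The other proteins of the tight junction were read from a list of 35 genes, of which 32 were tested. None was called by edgeR over all genes, and 4 had an unadjusted p under 0.05, 3 higher and 1 lower in NDD, against 11.2% of all genes in either direction. That count was 0 without WT replicate 3, 11 without NDD replicate 1, 2 without WT replicate 2 and 2 with the replicate block. The number of all genes at such a p moved too, from 1508 to 694 without WT replicate 3, 4115 without NDD replicate 1, 1010 without WT replicate 2 and 942 with the block. DESeq2 called 0 of them, with 6 at an unadjusted p under 0.05, where 1786 of all genes were. The fit by limma on log2(TPM + 1) called 0, with 3 at such a p, where 1293 of all genes were. The list's median log2 fold change was 0.09, against -0.0047 over all genes. Groups did not overlap for 9 genes higher and 5 lower in NDD, where 15.8% and 16.2% of all genes were on those sides.

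The 3 lowest p-values in that list belonged to membrane proteins that were higher in NDD. Marveld3, a relative of occludin, was at 67.1 and 60.5 CPM in NDD and at 50.7, 48.0 and 46.0 CPM in WT (log2 fold change 0.40 ± 0.12 SE, adjusted p by edgeR 0.412). Cxadr, an immunoglobulin-type adhesion protein of the junction, was at 143 and 172 CPM in NDD and at 116, 127 and 105 CPM in WT (log2 fold change 0.44 ± 0.14 SE, adjusted p by edgeR 0.418). Ildr1, which marks the corners where several cells meet, was at 307 and 394 CPM in NDD and at 276, 260.1 and 199 CPM in WT (log2 fold change 0.51 ± 0.19 SE, adjusted p by edgeR 0.437). For each of these genes both NDD libraries lay above all WT libraries, and none passed over all genes.

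Tjp1, which encodes the scaffold protein ZO-1 that anchors claudins, was at 245 and 247 CPM in NDD and at 297, 277 and 336 CPM in WT. Both NDD libraries lay below all WT libraries, and the log2 fold change was -0.30 ± 0.13 (SE), with an adjusted p of 0.46 by edgeR. Ocln, which encodes occludin, was at 98.2 and 68.7 CPM in NDD and at 68.4, 74.5 and 78.9 CPM in WT, with overlap, and its log2 change was 0.17 ± 0.18 (SE), with an adjusted p of 0.656 by edgeR. Its sign turned without NDD replicate 1, to -0.11.

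Adherens junctions and desmosomes, which lie below the tight junction, gave 0 calls among 19 tested genes by edgeR, with 2 at an unadjusted p under 0.05, both lower in NDD, and a median log2 fold change of -0.03. That count is close to the 11.2% of all genes at such a p. DESeq2 and limma also called 0, with 2 each at an unadjusted p under 0.05, where 1786 and 1293 of all genes were. Ppl, the linker periplakin, was at 43.3 and 40.0 CPM in NDD and at 55.5, 57.9 and 68.3 CPM in WT (log2 fold change -0.54 ± 0.15 SE, adjusted p by edgeR 0.362). Nectin4, an adhesion receptor, was at 4.11 and 5.15 CPM in NDD and at 6.005, 10.8 and 14.5 CPM in WT (log2 fold change -1.17 ± 0.40 SE, adjusted p by edgeR 0.437). Next by p, the desmosomal cadherin Dsg2, had a log2 fold change of 0.22 ± 0.12 (SE), with an adjusted p of 0.482 by edgeR. Cdh1, which encodes E-cadherin, was at 1279 and 1233 CPM in NDD and at 1153, 1145 and 1213 CPM in WT, for a log2 change of 0.10 ± 0.12 (SE), with an adjusted p of 0.689 by edgeR.

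Proteins that stabilise or cleave claudins, and factors that control their transcription, made up a list of 26 genes with 21 tested. edgeR called 0 of them, and 5 had an unadjusted p under 0.05, 2 higher and 3 lower in NDD, against 11.2% of all genes in either direction. Their median log2 fold change was 0.11. Without NDD replicate 2 the median was -0.043. DESeq2 called 2, Mmp7 among them, against 2.54% of all genes, and limma on log2(TPM + 1) called 0. Epcam, the adhesion protein that binds Cldn7, was at 1106 and 1129 CPM in NDD and at 1041, 1032 and 899 CPM in WT (log2 fold change 0.17 ± 0.13 SE, adjusted p by edgeR 0.557).

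Spint1, an inhibitor of the membrane protease matriptase, was at 252 and 272 CPM in NDD and at 165, 188 and 199.96 CPM in WT. Both NDD libraries lay above the WT libraries, by 0.51 ± 0.13 on the log2 scale (SE), with an adjusted p of 0.344 by edgeR. Mmp7, a secreted protease, was at 0.306 and 0.890 CPM in NDD and at 3.47, 2.15 and 13.04 CPM in WT. The log2 fold change was -3.38 ± 0.998 (SE), with an adjusted p of 0.394 by edgeR, and DESeq2 called it (adjusted p 0.00409, with a range up to 0.762 over its 13 alternatives). WT replicate 3 held most of its counts, 304 against at most 67 in the others. Without that library the log2 fold change was -2.23, and without NDD replicate 2 it was -4.31.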

How the data were processed

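RNA was sequenced in 5 libraries of colon spheroids. Per the labels' protocols, a column kit gave the RNA and an mRNA kit that keeps strand gave the libraries. Bowtie2, RSEM and the build mm10 are named, with no versions or roles, in the submitters' processing notes. The gene annotation is not given in the sources used here. The authors deposited estimated counts per gene as whole numbers, and TPM scaled to 1000000 per library. All 10 value columns matched 1 sample title each. Counts were fitted with edgeR 4.0.16 in R 4.3.3 (glmQLFit, robust, TMM factors, filterByExpr, no covariate) over 13501 genes, with Benjamini-Hochberg adjustment. Fold changes set NDD over WT, at edgeR's prior count of 0.125. Dividing the size of a log2 fold change by the root of its F statistic gave the SE, and intervals use the t distribution. Where an estimated count is shared with a near-identical copy, values would be uncertain. Each member shared at most 0.407% of its 31-base sequences with another gene in GENCODE M21.

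Members and gene lists were chosen with earlier results of these data known. Named genes are all members, the 3 smallest p-values of each junction and regulation list, and Tjp1, Ocln, Cdh1 and Epcam. A gene that this rule names is not reported here. Also named are other claudins with at least 10 counts in any library, Lgr5 and Krt20 among the markers, and, as nearest genes, those at the smallest distance in centred log2 CPM from the most abundant sealing and pore-forming member. The code was tested on simulated counts. Alternatives were RLE factors, DESeq2 1.42.0, no filter or 10 counts in every library, and a prior count of 2. The replicate block, other classes of members and leaving out each library were also run. limma 3.58.1 was run on log2(TPM + 1) with or without a minimum of 1 TPM in 2 libraries, and on log2(TPM + 0.1) with that minimum.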

Additional observations from a re-analysis of the deposited data

How the results depend on the processing

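The number of claudins called, 0, and of junction partners called, 0, was the same in all 13 alternatives fitted over all genes (edgeR, DESeq2 and limma). At an unadjusted p under 0.05 there was 1 claudin, while DESeq2 gave 2, the replicate block 2 and left-out WT libraries 0 to 2. All genes at such a p numbered 1508 in the main fit, 1786 with DESeq2 and 942 with the block. With a WT library left out they numbered 694 to 1221. The number of all genes called was 12, and it was 365 with DESeq2, 58 with no filter, 4 with 10 counts in every library, 33 with the replicate block and 0 to 1198 with a library left out, 1198 being without NDD replicate 1. Leaving out an NDD library leaves 1, which is assumed to vary like the WT libraries. Of the members, Cldn15 reversed with the replicate block (-0.23), and with a library left out it ranged from -0.35 to 0.43. Likewise Cldn4 ranged from -0.48 to 0.11, Cldn3 from -0.040 to 0.085, Cldn7 from -0.088 to 0.16 and Cldn12 from -0.081 to 0.22. The junction partner Ocln ranged from -0.11 to 0.42 with a library left out. The cause was not tested. Cldn2, Cldn8 and Cldn23 kept their sign in all 14 alternatives. The pore-forming against sealing difference was -0.0042. It was -0.03 in CPM, -0.02 with all 10 members in a class and -0.26 as a difference of mean log2(TPM + 1). All moved by less than 0.65, the pooled SD within genotype of the main log2 ratio. The SD of each alternative measure was not computed. Replicate numbers are shared by the groups, but the main fit did not treat an NDD and a WT library of equal number as pairs. After centring each genotype on its mean, such libraries correlated over genes at -0.0095 (replicate 1) and 0.35 (replicate 2). With only 2 NDD libraries, their centred values are mirror images, so these correlations cannot decide whether the numbers mark pairs. At 19192389 to 23064000 counts per library, Cldn1 and Cldn6 could not be tested.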

Other observations

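Beyond the 10 members, the tables list 21 further genes of a hand-made list of claudins and claudin-domain genes, and 9 of these had 0 counts in all 5 libraries. With at least 10 counts in any library there were Cldn14 and Cldnd1. Cldn14, a sealing claudin of the inner ear and kidney, had 6 and 12 counts in NDD and 11, 23 and 20 in WT (log2 fold change -0.98, SE 0.57, edgeR adjusted p 0.493). Cldnd1, a claudin-domain gene, was at 64.7 and 53.8 CPM in NDD and at 43.9, 55.2 and 52.4 CPM in WT (log2 fold change 0.23, SE 0.16, edgeR adjusted p 0.534).

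Some genes on the regulation and junction lists shared much of the library order of Cldn15 or Cldn4; they were picked after their values were seen. Cdx2, a transcription factor of intestinal identity, was at 154 and 309 CPM in NDD and at 259, 194 and 146 CPM in WT. That is the order of Cldn15 except that the top pair, WT replicate 1 and NDD replicate 2, changed places. Lsr, a protein of the corners between cells, was at 299 and 165 CPM in NDD and at 274, 354 and 419 CPM in WT, which is the order of Cldn4 except that NDD replicate 1 and WT replicate 2 changed places. Neither was called (edgeR adjusted p 0.779 for Cdx2 and 0.477 for Lsr), and the part of either in the claudin values was not tested.

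The nearest genes in log2 CPM centred over the 5 libraries, among 10728 genes, were Katna1, Bivm and Trim25 for Cldn3 (Euclidean distances 0.0296, 0.0324 and 0.0551) and Zfp235, Zfp780b and Kctd21 for Cldn15 (0.207, 0.261 and 0.344).

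Cldn12 differed between the deposited scales. Its ratio of count to TPM, which follows the estimated transcript length, varied 1.22-fold between libraries after centring each library, and only 2.06% of 7730 genes with at least 300 counts in every library varied more. It has 8 transcripts in GENCODE M21. The ratio of Cldn3, a gene with 1 transcript, varied 1.01-fold.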
